A study of Mus musculus with 12 samples.

Results

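The genes described are 10 interferon-gamma inducible GTPases of the mouse, chosen by symbol. A total of 7 are guanylate-binding proteins (GBPs), namely Gbp2, Gbp3, Gbp4, Gbp5, Gbp7, Gbp8 and Gbp9, and 3 are immunity-related GTPases (IRGs), namely Irgm1, Igtp and Iigp1. Of the 39017 gene rows in the count table, 9 carried the Ensembl ID of a member in GENCODE vM21, and all 9 passed the filter on low counts that left 15015 genes. Gbp5 was not analysed here, because none of the rows carried its ID in that annotation, although the row with the ID of Gbp2b may hold it under an older annotation. The mice were female C57BL/6, and all had EAE (experimental autoimmune encephalomyelitis), a model of multiple sclerosis in which the immune system attacks myelin. All 12 libraries came from spinal cord of Tmem119-Cre:RiboTag animals, in which Cre driven by the microglial gene Tmem119 turns on a tagged ribosomal protein, and the tag is used to isolate RNA on the ribosomes of the cells with Cre. The genotype was Kdm6a cKO, a conditional deletion of the X-linked histone demethylase gene Kdm6a, in 6 libraries (replicates 1 to 6) and wild type (WT) in 6 (replicates 7 to 12). The labels neither describe the deleted allele nor tie each library to its own animal, and no group without EAE or without Cre was analysed here.

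Interferon-gamma, released mainly by T cells and natural killer (NK) cells, binds a receptor of 2 chains, Ifngr1 and Ifngr2, whose kinases Jak1 and Jak2 start a signal to the nucleus. Promoters of responding genes often hold GAS elements or related elements called ISREs, and the induced transcription factor Irf1 binds the latter. GBPs and IRGs are among the genes most strongly induced in this way in macrophages and microglia. Their proteins gather on the membranes of vacuoles that hold bacteria or parasites and on bacteria themselves, open them to the cytosol and to caspases, and are guided in part by the autophagy machinery. Irgm1 and Igtp belong to the regulatory IRGs, which sit on the cell's own membranes and hold effector IRGs such as Iigp1 inactive there.

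The promoters of the members are shown as a description. Whether their motifs bear on the members' levels was not tested. RefSeq promoter windows of GRCm38.p6, which run from 250 bases before the start of a gene to 50 after it, were used for 6 of the 10 members, among them Gbp5, for which no counts are given. The 5 with counts are shown. Capitals mark matches on either strand to the GAS letters TTCNNNGAA, where N is any base, or to the ISRE letters, GAAA and a second GAAA with 2 bases of any kind between them. The windows shown are those of Gbp2 (chr3:142620413-142620712, plus strand), Gbp3 (chr3:142559794-142560093, plus strand), Gbp7 (chr3:142530086-142530385, plus strand), Irgm1 (chr11:48871371-48871670, minus strand) and Igtp (chr11:58199306-58199605, plus strand).
Gbp2: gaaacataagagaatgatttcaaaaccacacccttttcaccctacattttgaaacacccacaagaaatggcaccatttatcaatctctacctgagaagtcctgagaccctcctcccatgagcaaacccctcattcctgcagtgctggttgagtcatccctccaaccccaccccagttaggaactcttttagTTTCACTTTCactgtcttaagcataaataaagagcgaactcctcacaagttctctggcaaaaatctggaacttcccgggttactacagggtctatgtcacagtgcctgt
Gbp3: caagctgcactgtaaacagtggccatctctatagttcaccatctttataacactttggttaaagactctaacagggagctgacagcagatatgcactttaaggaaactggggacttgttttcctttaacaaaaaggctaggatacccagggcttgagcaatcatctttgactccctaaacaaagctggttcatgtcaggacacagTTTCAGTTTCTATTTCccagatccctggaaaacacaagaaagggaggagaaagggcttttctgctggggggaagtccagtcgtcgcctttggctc
Gbp7: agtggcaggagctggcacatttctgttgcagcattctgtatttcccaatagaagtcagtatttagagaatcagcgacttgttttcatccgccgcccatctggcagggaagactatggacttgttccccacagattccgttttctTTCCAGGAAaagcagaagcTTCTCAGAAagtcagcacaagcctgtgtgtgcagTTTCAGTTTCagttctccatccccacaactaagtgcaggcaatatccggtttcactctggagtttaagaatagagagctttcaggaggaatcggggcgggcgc
Irgm1: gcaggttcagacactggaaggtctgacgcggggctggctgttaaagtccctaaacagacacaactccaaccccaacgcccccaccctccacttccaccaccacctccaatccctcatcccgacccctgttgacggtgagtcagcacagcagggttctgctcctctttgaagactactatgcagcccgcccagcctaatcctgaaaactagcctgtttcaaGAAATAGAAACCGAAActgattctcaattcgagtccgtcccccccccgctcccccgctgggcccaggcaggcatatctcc
Igtp: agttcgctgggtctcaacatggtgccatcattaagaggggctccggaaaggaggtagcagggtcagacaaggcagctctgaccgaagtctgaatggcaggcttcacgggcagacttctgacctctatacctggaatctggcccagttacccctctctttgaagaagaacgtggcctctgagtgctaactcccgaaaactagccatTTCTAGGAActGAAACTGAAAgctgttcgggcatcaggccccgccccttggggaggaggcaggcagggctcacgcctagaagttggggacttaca
Each of these 5 windows held at least 1 ISRE match, as did that of Gbp5, against 3.45% of 32544 promoter windows of the same length. Gbp3 and Irgm1 each had 2 overlapping ISRE matches. GAS matches were found in the windows of Gbp7 and Gbp5, with 2 each, and Igtp, with 1, against 8.33% of all windows. In Igtp the GAS match began 45 bases before the gene start and the ISRE match 34 bases before it. The matches describe letters in these windows and are not binding data. A second Gbp3 window in the same table, further into the gene, held no match.

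Total counts ran from 19040115 to 26296071 per library. Kdm6a stood at 1.59 to 4.50 CPM (counts scaled to a common library total after TMM normalization) in cKO and at 3.35 to 6.19 CPM in WT, and its log2 fold change of -0.70 ± 0.25 (SE, 6 libraries a group) did not pass (adjusted p = 0.117, edgeR), with cKO 2 within the WT range. It passed with limma-voom (log2 fold change -0.58, adjusted p = 0.0497) and in edgeR fits with the covariate for markers of other cells (-1.12, 0.00598) or a surrogate variable (-0.91, 0.00239), and its adjusted p over the other alternatives was up to 0.233. The 10 microglial markers summed to 8657 to 19879 CPM in cKO and 11322 to 13165 CPM in WT, so the labelled cell type was present in all libraries. Of these 10, 2 were called higher in cKO by edgeR, beside 2.44% of all genes tested. The log2 fold change was positive for 9 of them (median 0.53), beside 54.6% of all genes. Neuronal markers summed to 903, 721 and 565 CPM in cKO 2, 1 and 4, above every WT library (at most 358 CPM). All 14 neuronal markers had a positive log2 fold change (median 0.81), and none passed by edgeR. The library cKO 5 had the lowest microglial sum. It also had the highest sum of monocyte and neutrophil markers, 20.8 CPM against 2.83 to 11.2 CPM in the other libraries. Of these 10 markers, 3 passed the filter on low counts and 1, Ly6g of neutrophils, was at 0 counts in all libraries. The highest value of any of them in a library was 11.3 CPM, for S100a8, while Ly6c2 and Ccr2 reached at most 1.63 and 0.67 CPM. Since these are bulk libraries, fewer cells of a type and less RNA per cell cannot be told apart.

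The family was expressed in every library, with Gbp2, Igtp and Irgm1 far above the others. On a scale corrected for gene length (RPKM, the CPM divided by the GENCODE exon length in kilobases), the order of levels in WT was Gbp2 at 60.0 ± 31.8, Igtp at 45.7 ± 19.1 and Irgm1 at 17.0 ± 6.72 RPKM (SD, n = 6). Gbp3 followed at 5.47 ± 1.55, Iigp1 at 3.64 ± 2.01 and Gbp7 at 1.57 ± 0.544 RPKM. Lowest were Gbp9 at 0.832 ± 0.187, Gbp4 at 0.695 ± 0.478 and Gbp8 at 0.468 ± 0.176 RPKM. The WT ranges of neighbours in this order overlapped, except that Igtp lay above Irgm1 and Irgm1 above Gbp3 in all WT libraries without overlap. Within single libraries, Gbp2 exceeded Igtp in 5 of 6 WT and 6 of 6 cKO libraries, while Gbp9 exceeded Gbp4 in 4 of 6 in each group. The annotation used for counting is not given in the sources used here, so the lengths are approximate.

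Gbp2, a lipid-anchored GBP that coats bacteria and parasite vacuoles, lies on chromosome 3 (142620602 to 142638008, plus strand, mm10). It stood at 54.5, 121 and 262 CPM in the lowest, median and highest WT library. In cKO the lowest, median and highest values were 66.1, 220 and 487 CPM. Of the cKO libraries, 4 lay above the WT median, and of these cKO 5, cKO 6 and cKO 4, at 487, 412 and 275 CPM, exceeded every WT library. The mean was 248 ± 174 CPM in cKO and 151 ± 80.0 CPM in WT (SD, n = 6 each). Between cKO and WT the log2 fold change came to 0.72 ± 0.49 (SE), with a 95% confidence interval from -0.33 to 1.77, and did not pass (adjusted p = 0.416, edgeR quasi-likelihood test). A two-sided exact permutation test of its CPM gave p = 0.245.

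Gbp3 and Gbp7, the other measured GBPs of the chromosome 3 cluster, differed by less than the spread between libraries. Gbp3 (142560026 to 142573209) had its lowest, median and highest values at 9.96, 18.1 and 25.3 CPM in WT. In cKO these were 10.3, 25 and 37.1 CPM, with cKO 4 and cKO 5 above every WT library. Its log2 fold change was 0.36 ± 0.29, with an interval from -0.26 to 0.98 (adjusted p = 0.505, edgeR). Gbp7 (142530342 to 142550149) ran over 3.91, 10.2 and 11.4 CPM in WT and over 2.04, 9.15 and 29.5 CPM in cKO, again as lowest, median and highest. Both the lowest and the highest Gbp7 value of all libraries were thus cKO libraries, cKO 3 and cKO 5. The log2 fold change was 0.34 ± 0.49, with an interval from -0.71 to 1.40 (adjusted p = 0.738, edgeR).

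Gbp4, Gbp8 and Gbp9 lie together on the minus strand of chromosome 5, at 105115767 to 105139586, 105014150 to 105139540 and 105077630 to 105139539. In GENCODE their exons share 60 to 61 bases, and the members of this cluster are close in sequence, so the split of reads among them is uncertain. Gbp4 stood at 2.02, 4.12 and 11.6 CPM (lowest, median and highest) in WT and at 1.09, 6.21 and 21 CPM in cKO. Its highest library was cKO 5 and its lowest cKO 3, a ratio of 19.2. The log2 fold change was 0.54 ± 0.63, with an interval from -0.81 to 1.89 (adjusted p = 0.667, edgeR). Gbp8 and Gbp9 were read from 16 to 65 and from 55 to 172 counts per library. Gbp8 stood at 0.659, 1.71 and 2.47 CPM in WT and at 0.807, 1.60 and 2.59 CPM in cKO (lowest, median and highest). Gbp9 stood at 2.72, 4.31 and 5.75 CPM in WT and at 2.61, 4.07 and 6.49 CPM in cKO. Both genes thus had nearly the same range in the 2 groups. Their log2 fold changes were -0.04 ± 0.32 (interval -0.71 to 0.64) and -0.08 ± 0.23 (interval -0.58 to 0.43), with adjusted p of 0.966 and 0.890 (edgeR). Gbp9 was the 1 member whose highest library was not cKO 5 but cKO 4, at 6.49 CPM.

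The regulatory IRGs among the members, Irgm1 and Igtp, had almost equal means in both groups. Irgm1 (chromosome 11, 48861968 to 48871683, minus strand) stood at 47.4, 93.2 and 156 CPM in the lowest, median and highest WT library and at 45.4, 88.5 and 191 CPM in cKO. The means were 96.5 ± 54.8 CPM over the 6 cKO libraries and 98.5 ± 39.0 CPM over the 6 WT libraries (SD), and the log2 fold change was -0.03 ± 0.35. The interval from -0.79 to 0.73 corresponds to 0.579 to 1.66 times the WT level (adjusted p = 0.974, edgeR). Igtp, also called Irgm3 (chromosome 11, 58199556 to 58207591, plus strand), ran over 56.8, 74.8 and 161 CPM in WT and over 40.9, 77.2 and 165 CPM in cKO. Its log2 fold change was -0.10 ± 0.35, with an interval from -0.85 to 0.64 (adjusted p = 0.903, edgeR). Igtp shares 162 exonic bases, 8.01% of its exon length, with its neighbour Irgm2 on the same strand, so a part of its reads could be assigned to either.

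Iigp1, an effector IRG on chromosome 18 (60376027 to 60392634, plus strand), had the most extreme single value. It stood at 7.16, 20.4 and 40.0 CPM in the lowest, median and highest WT library. In cKO it stood at 6.69, 18.3 and 112 CPM. The 112 CPM belonged to cKO 5, and the next cKO library, cKO 6, had 25.1 CPM. The cKO mean of 31.4 ± 40.4 CPM (SD, n = 6) was 15.2 CPM without cKO 5, against 21.2 ± 11.7 CPM in WT. The log2 fold change was 0.57 ± 0.64, with an interval from -0.80 to 1.94 (adjusted p = 0.654, edgeR).

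**Figure D1:**
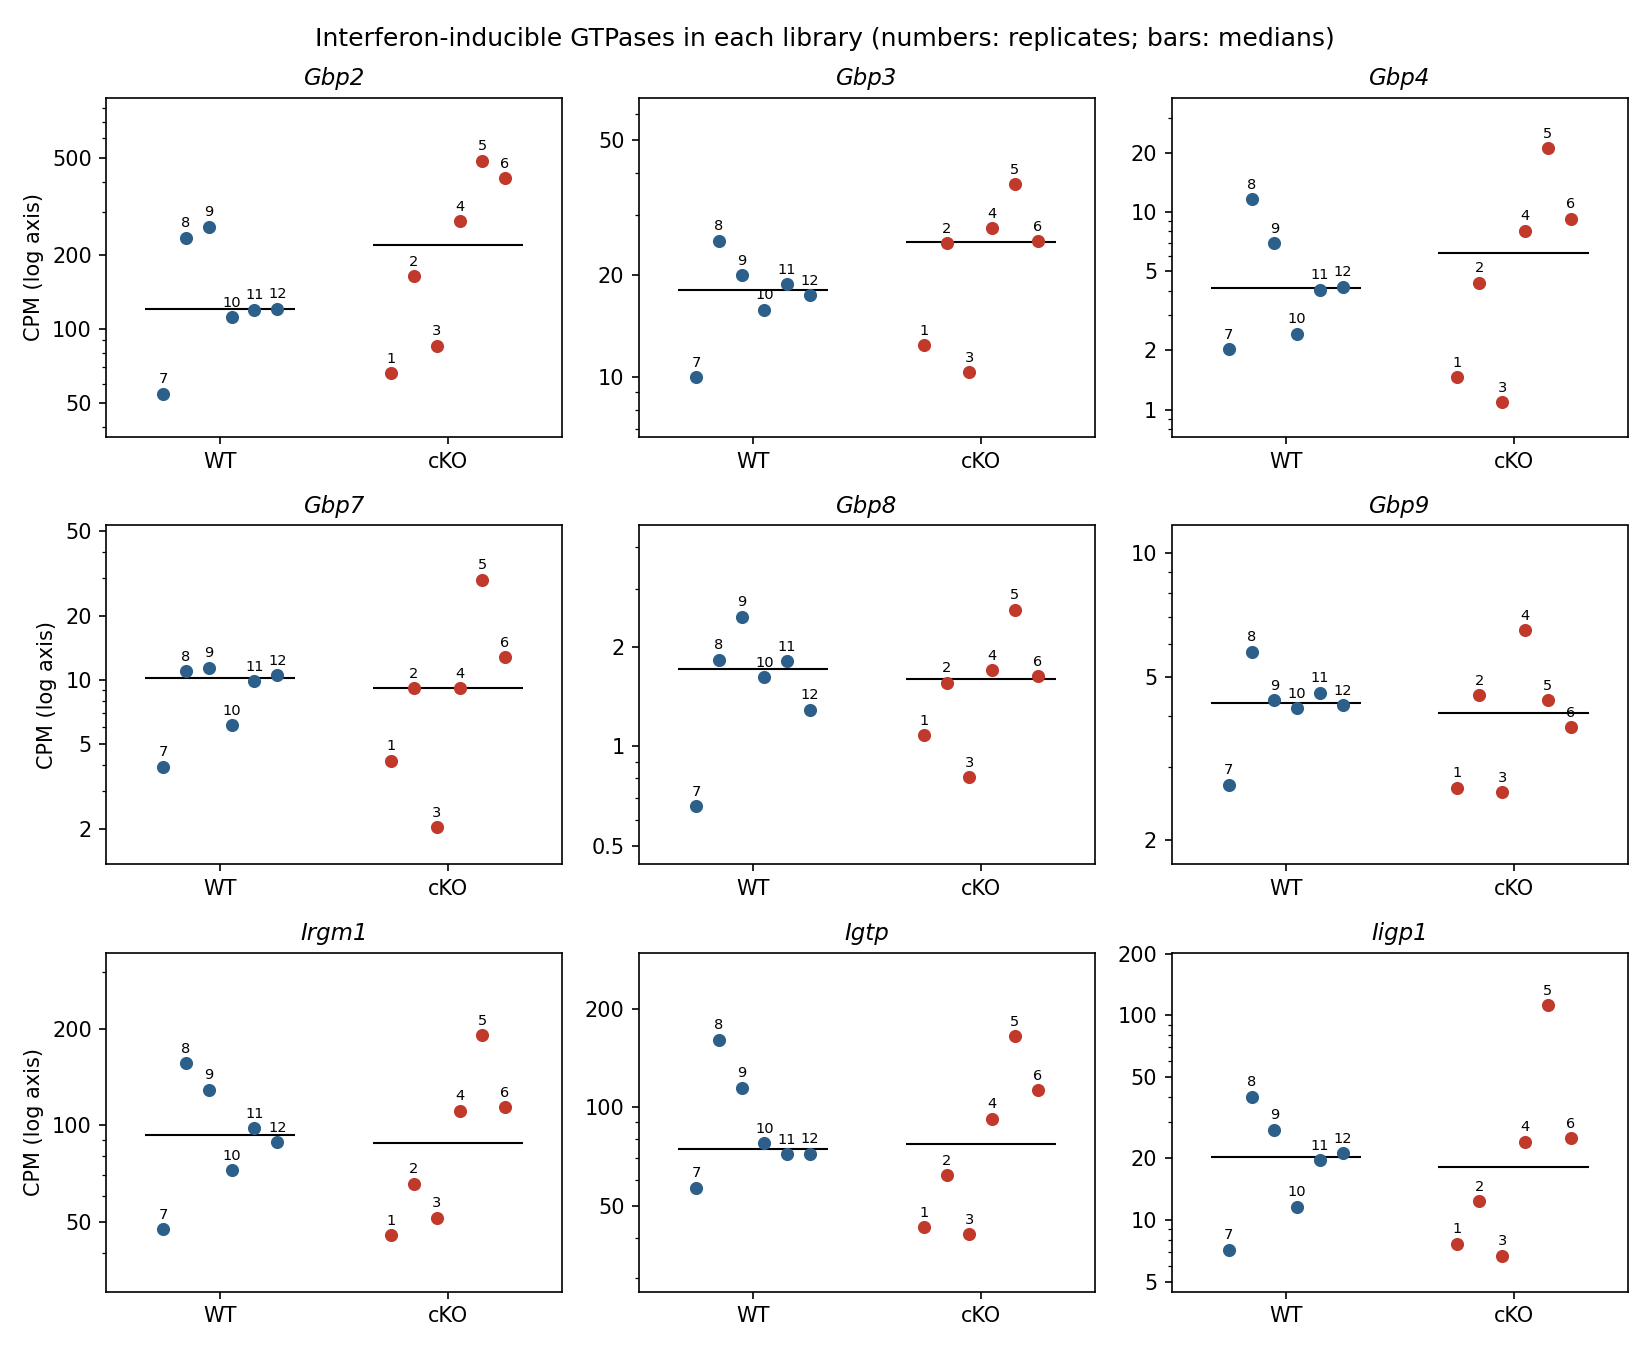
CPM of the 9 measured members on log axes, 1 point per library with its replicate number, and a bar at the median of each group of 6. In each panel the groups overlap, with cKO 1, cKO 3 and WT 7 low and, except for Gbp9, cKO 5 highest.

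None of the 9 members passed the test in either direction, where 5.87% of the 15015 genes tested did by edgeR at an adjusted p under 0.05. Those called higher in cKO were 2.44% of all genes tested, and those called lower 3.43%. None of the 9 was under an unadjusted p of 0.05 either, as 23.8% of all genes were. DESeq2 and limma-voom with sample weights also called 0 of the 9, where they called 12.3% and 31.1% of all genes. The groups overlapped in CPM for all 9, whereas they did not overlap for 4.13% of all genes tested. The median log2 fold change of the 9 was 0.34, beside 0.03 over all genes, with 5 positive and 4 negative. Without cKO 5 that median was -0.23, with 2 of 9 positive, and the log2 fold changes of Gbp4, Gbp7 and Iigp1 turned to -0.10, -0.23 and -0.48. The intervals leave room for changes of 1.34-fold (Gbp9) to 3.83-fold (Iigp1) upwards, and down to 0.556 times the WT level (Igtp).

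**Figure D2:**
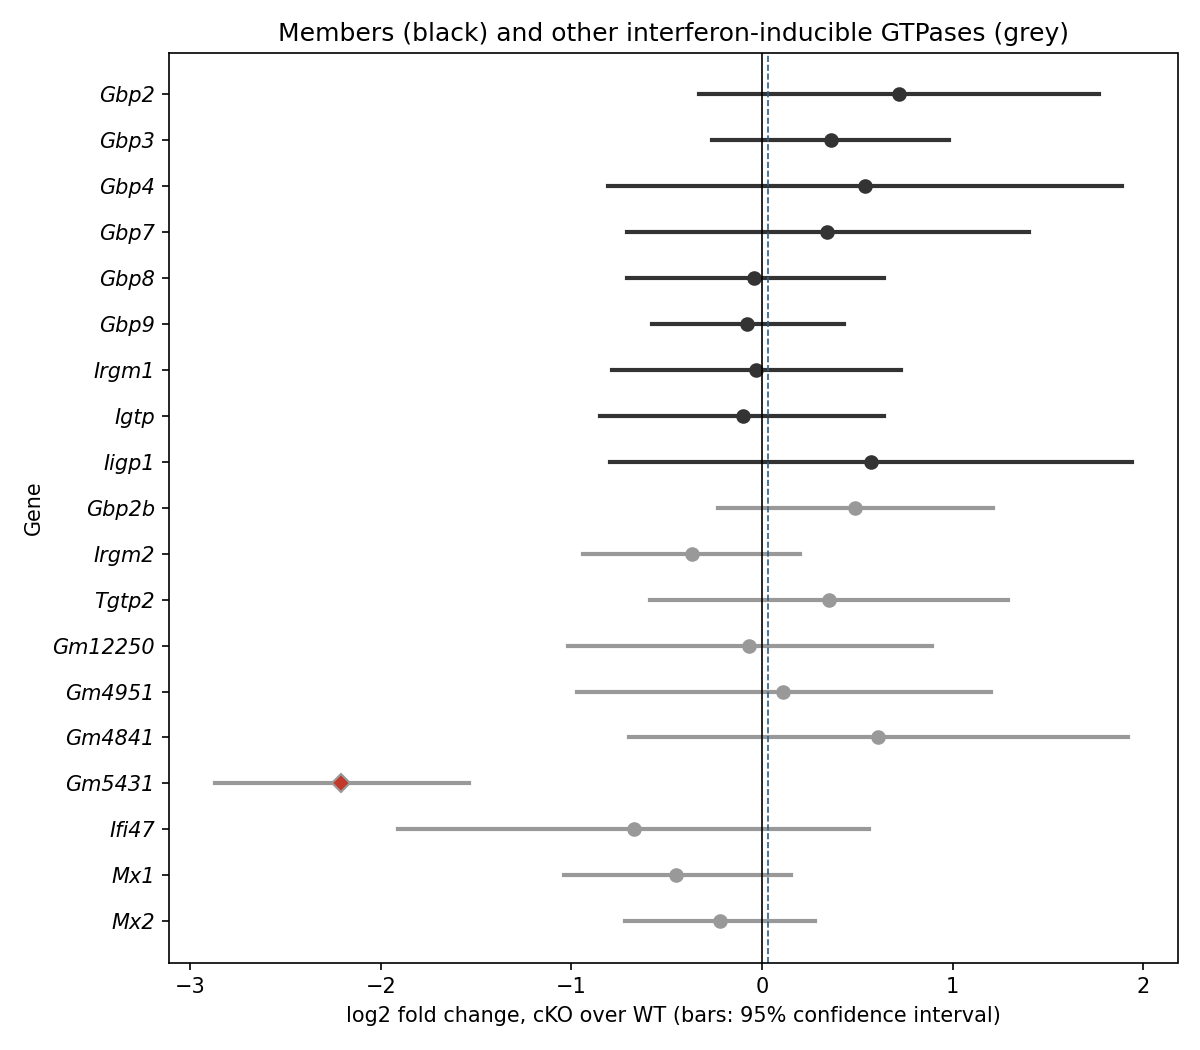
Log2 fold change of cKO over WT with its 95% confidence interval from the edgeR fit, for the 9 members in black and 10 other interferon-inducible GTPases in grey. The dashed line is the median of all genes (0.03). All member intervals cross 0, and only Gm5431 (red diamond, -2.21) passed.

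The members differed more between libraries of the same group than between the groups. Standardized on the log2 CPM scale over the 12 libraries and averaged over the 9 members, their level was 0.02 ± 1.14 SDs over the 6 cKO libraries and -0.02 ± 0.77 SDs over the 6 WT libraries (mean ± SD). The 2 means mirror each other by construction, because each member was standardized over all 12 libraries. The family level was lowest in cKO 3 (-1.43 SDs), WT 7 (-1.30) and cKO 1 (-1.18) and highest in cKO 5 (1.55), WT 8 (0.91), cKO 4 (0.62), WT 9 (0.60) and cKO 6 (0.57). Both ends of this order therefore held libraries of both genotypes. The highest library was cKO 5 for 8 of the 9 members, beside 22.9% of all genes tested. The lowest was cKO 3 for 5 members, WT 7 for 3 and cKO 1 for 1, and 15.4% of all genes had their lowest value in one of these 3 libraries. These libraries were singled out after their values had been seen. In cKO 5 the microglial marker sum was the lowest, and 7 of the 10 microglial markers had their lowest value there. Of all 15015 genes tested, 3287 had their lowest value in cKO 5. The part of that library's marker levels in the members' values was not tested.

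**Figure D3:**
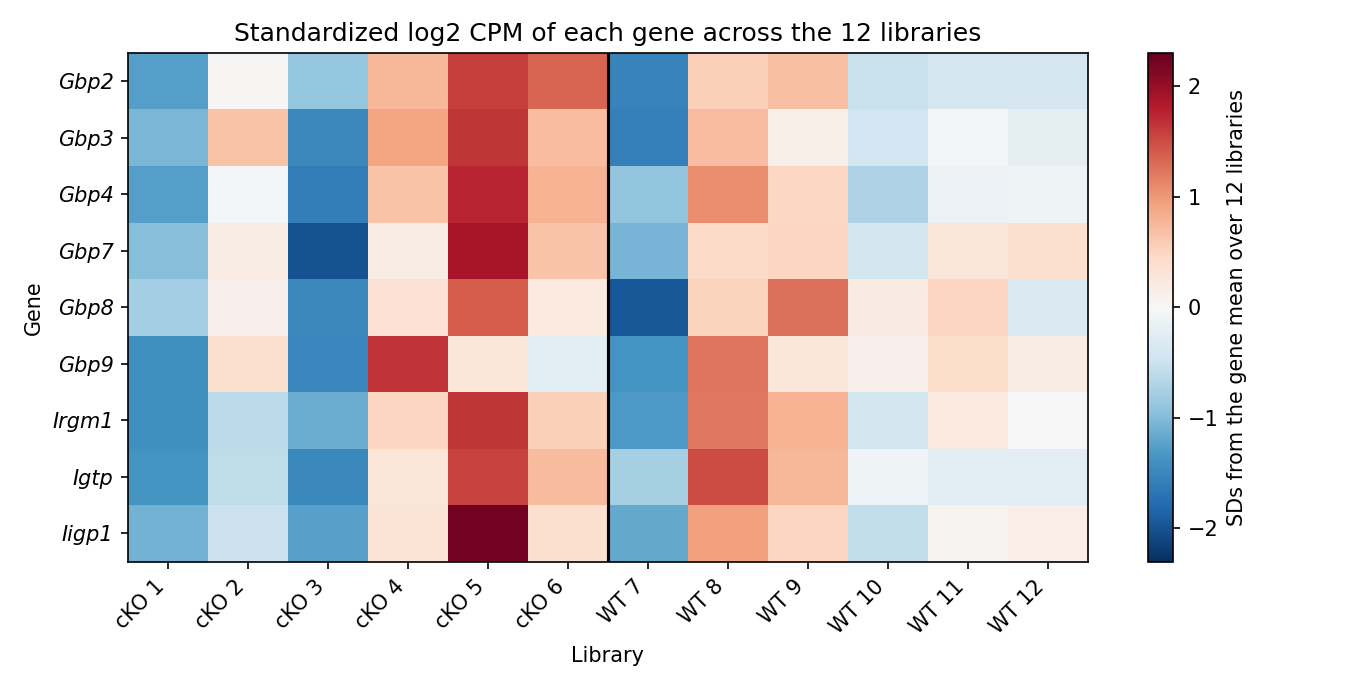
Each row is 1 member and each column 1 library, with colour giving the number of SDs of log2 CPM above (red) or below (blue) the gene's mean over the 12 libraries. The columns cKO 1, cKO 3 and WT 7 are blue in all 9 rows, and cKO 4, cKO 5, WT 8 and WT 9 are red in all 9.

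The spread was wider in cKO. The SD of log2 CPM among cKO libraries ran from 0.49 for Gbp9 to 1.60 for Gbp4, and among WT libraries from 0.34 for Gbp9 to 0.92 for Gbp4, where the median gene had 0.35 in cKO and 0.20 in WT. For Gbp4, 0.320% of all genes tested had a larger SD in cKO and 0.992% in WT. For Iigp1 these shares were 0.519% and 1.20%, and for Gbp2 1.94% and 1.57%. Gbp8 alone was spread less in cKO (0.54) than in WT (0.61). The range from the lowest to the highest cKO library was 16.8-fold for Iigp1, 14.4-fold for Gbp7, 7.37-fold for Gbp2 and 4.20-fold for Irgm1. In WT the same ranges were 5.58-fold, 2.92-fold, 4.80-fold and 3.29-fold.

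Within a library, the members did not keep one ratio. Gbp2 had 1.15 to 2.03 counts for each count of Irgm1 in WT (1.47 ± 0.312, SD, n = 6), and 1.45 to 3.62 in cKO (2.38 ± 0.769). In cKO 2, 4, 5 and 6 the ratio was 2.50, 2.47, 2.55 and 3.62, above every WT library, while cKO 1 and cKO 3, at 1.45 and 1.66, lay within the WT range. Iigp1 over Irgm1 was 0.204 ± 0.0419 in WT and 0.252 ± 0.168 in cKO, where cKO 5 alone, at 0.588, exceeded the WT maximum of 0.256. These ratios were picked after the values had been seen and were not tested. The row with the ID of Gbp2b had 0.249 to 0.485 counts for each count of Irgm2 in cKO and 0.177 to 0.274 in WT, with 5 of 6 cKO libraries above every WT library.

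**Figure D4:**
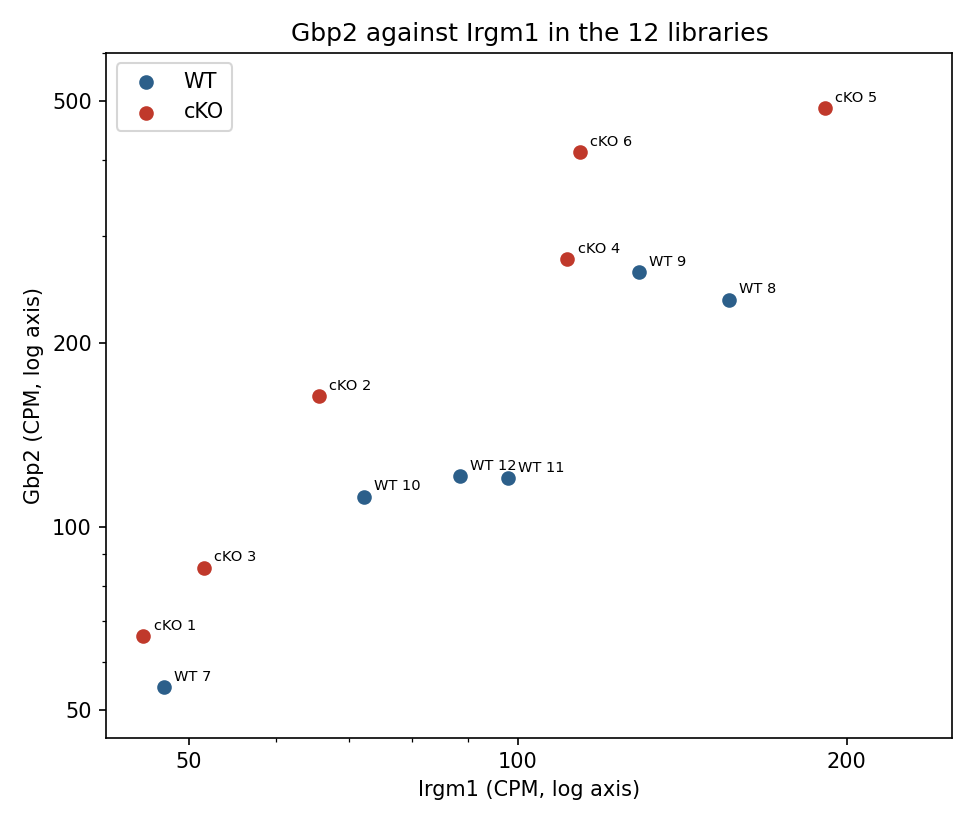
Gbp2 against Irgm1 in CPM on log axes, 1 point per library. Gbp2 was lowest in the libraries with the least Irgm1 (cKO 1, cKO 3 and WT 7), and the points of cKO 2, cKO 4 and cKO 6 lie above those of the WT libraries nearest to them in Irgm1.

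Of 18 other interferon-inducible GTPases on a list chosen for this family, 10 were tested, of which 1 fell and 9 did not pass. Of all genes tested, 3.43% were called lower and 2.44% higher in cKO. The list was chosen with earlier results of these data known. The 1 that fell was Gm5431, which RefSeq also names Irgb9b8, an IRG gene that lies beside Irgm1 on chromosome 11 (48887422 to 48902214, minus strand). It stood at 3.58, 5.18 and 7.66 CPM in the lowest, median and highest WT library. In cKO it stood at 0.490, 1.37 and 1.63 CPM, so that the groups did not overlap, as for 4.13% of all genes tested. It fell by 2.21 ± 0.31 (SE) on the log2 scale, with a 95% interval of the log2 fold change from -2.87 to -1.54 (adjusted p = 0.000998, edgeR). The exact permutation p of its CPM was 0.00216 (two-sided), the smallest that 924 assignments can give. Raw counts were low, 13 to 41 in cKO and 87 to 161 in WT. Its pattern over the libraries was unlike that of the members: cKO 5 had 1.63 CPM, close to cKO 6 with 1.58 and cKO 1 with 1.55 CPM. The 300-base window at its start held neither motif, where 11.3% of 32544 windows held either. For Irgm2, the regulatory IRG beside Igtp, the log2 fold change was -0.37 ± 0.27, which did not pass (adjusted p = 0.451, edgeR). The row with the ID of Gbp2b, the GBP gene next to Gbp2, had one of 0.49 ± 0.33 (adjusted p = 0.422, edgeR). In the annotation used for counting, which is not given, that ID may have stood for Gbp5, with Gbp3 and Gbp7 lying between the 2 genes. This row may therefore hold the member that is otherwise missing.

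Upstream of the family, ligand reads were almost absent in this RNA and the receptor was abundant. The tag selects RNA of cells with Cre and no library of whole tissue was analysed here. The Ifng counts therefore do not measure the ligand in the spinal cord. Ifng had 6 counts in cKO 5 and 0 in the other 5 cKO libraries, and 1, 4, 2 and 1 counts in WT 7, 10, 11 and 12 with 0 in WT 8 and 9. In a library, 3 counts correspond to 0.109 to 0.157 CPM, so Ifng was near the limit of detection throughout. Ifngr1, the ligand-binding chain, stood at 321 ± 94.9 CPM in cKO and 306 ± 29.2 CPM in WT (SD, n = 6 each), and was lowest in cKO 5, at 182 CPM. For Ifngr2, the signalling chain, the log2 fold change of -0.22 ± 0.11 did not pass by edgeR (adjusted p = 0.247), while limma-voom with sample weights gave -0.28 with an adjusted p of 0.0372. The kinases Jak1 and Jak2 were at 0.09 ± 0.13 and 0.24 ± 0.17 on the same log2 fold scale (adjusted p = 0.725 and 0.415, edgeR).

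The transcription factor Irf1 averaged 194 ± 113 CPM in cKO and 220 ± 104 CPM in WT, and the log2 fold change, -0.18 ± 0.37, did not pass (adjusted p = 0.827, edgeR). Its highest values were 395 CPM in WT 8 and 388 CPM in cKO 5, and its lowest 88.7 CPM in cKO 1, 113 CPM in cKO 3, 129 CPM in cKO 2 and 137 CPM in WT 7. The order resembled that of the members except in cKO 2, which was the third lowest for Irf1 and in none of the 3 lowest places for any member. Socs1, a feedback inhibitor of Jak kinases, stood at 51.9 CPM in cKO 5 and at 3.13 to 22.6 CPM in the other libraries (log2 fold change 0.43 ± 0.67, adjusted p = 0.768, edgeR).

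Across the remaining interferon pathway lists, no gene passed by edgeR. Of all 84 pathway genes tested, Gm5431 included, 9 had an unadjusted p under 0.05 by edgeR, while DESeq2 called 2 of 83 and limma-voom with sample weights 23 of 84. These are 10.7%, 2.41% and 27.4% of the pathway genes, beside 23.8%, 12.3% and 31.1% of all genes by the same rules. The 35 tested targets outside the family, which include antigen presentation genes, chemokines and Nos2, had a median log2 fold change of -0.06, with 14 positive and 21 negative. Of these, 17 (48.6%) were highest in cKO 5 and 19 (54.3%) were lowest in cKO 1, cKO 3 or WT 7. Over all genes tested these shares were 22.9% and 15.4%. The T cell chemokine Cxcl9 was at 121 ± 72.9 CPM in cKO and 72.2 ± 36.3 CPM in WT (adjusted p = 0.354, edgeR), and Psmb9, a subunit of the immunoproteasome, at 151 ± 79.4 and 162 ± 35.6 CPM (adjusted p = 0.868, edgeR). None of 7 signal transduction genes, 9 inhibitors and 19 autophagy and inflammasome partners passed, with medians of 0.01, -0.08 and -0.14. Of the partners, 6 of 19 (31.6%) were highest in cKO 5 and 3 of 19 (15.8%) lowest in cKO 1, cKO 3 or WT 7. These shares stand beside the same 22.9% and 15.4% of all genes. The smallest adjusted p among the partners was 0.0503, for the autophagosome protein Map1lc3a (log2 fold change -0.46 ± 0.13, edgeR). Its values did not overlap between the groups, at 52.5 to 80.2 CPM in cKO and 80.4 to 122 CPM in WT. The same held for 4.13% of all genes tested, and Map1lc3a was named after its values had been seen.

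Among the genes whose levels over the 12 libraries were nearest to the family mean were Gm12250, Cxcl10, Zbp1 and Arg1. Their standardized log2 CPM differed from that of the family by 0.19, 0.22, 0.26 and 0.27 SDs on average over the libraries, beside a median of 1.13 SDs for all other genes. Gm12250 is named Irgb10 in RefSeq, an effector IRG. Cxcl10 is a chemokine for T cells, Zbp1 a sensor of nucleic acids and Arg1 an arginase of myeloid cells. None of these 4 passed between cKO and WT (adjusted p from 0.721 to 0.953, edgeR). They were picked for nearness to a family level with nearly equal group means, so this outcome was largely set by the choice. Arg1 stood at 30.4 CPM in cKO 5 and 10.3 CPM in WT 9, and at 0.188, 0.237 and 0.206 CPM in cKO 1, cKO 3 and WT 7. Gm5431 was 1.17 SDs from the family by the same measure and Ifngr1 1.36 SDs.

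Markers of T and NK cells, which release interferon-gamma, were low in all libraries. Because the tag selects RNA of cells with Cre, their levels do not measure how many such cells the tissue held. The 20 T and NK cell markers summed to 6.68 to 15.4 CPM in cKO and 10.7 to 24.7 CPM in WT, with 15.0 CPM in cKO 5 and 10.7 CPM in WT 8, the libraries with the highest family levels. Low-family libraries cKO 1, cKO 3 and WT 7 had 6.68, 12.4 and 13.3 CPM. None of the 20 was at 0 in all libraries. All 6 that could be tested had a negative log2 fold change (median -0.87, from -1.05 to -0.14), 2 had an unadjusted p under 0.05, and none passed by edgeR (adjusted p at least 0.12). Endothelial and mural markers, from cells that can also express GBPs, summed to 52.2 CPM in cKO 5 and 125 CPM in cKO 3, the highest of all. Of these 12 markers, 8 passed the filter on low counts. Flt1 reached 105 CPM in its highest library and the next marker, Pdgfrb, 16.0 CPM, so the highest sum rests mostly on Flt1. Border macrophage markers summed to 4.14 to 8.06 CPM in cKO and 3.71 to 10.6 CPM in WT. Astrocyte markers summed to 431 to 661 CPM in cKO and 430 to 500 CPM in WT. The part of other cells in the members' levels was not tested.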

How the data were processed

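The authors deposited raw read counts for 39017 Ensembl gene IDs, with 1 column for each of the 12 libraries. The submitters' processing notes name bcl2fastq 2.17, FastQC, Trimmomatic and build mm10. Which aligner, counter, strand setting and annotation were used is not given in the sources used here. Per the labels' protocols, a KAPA stranded kit was used after mRNA enrichment. Symbols, coordinates and exon lengths came from GENCODE vM21 (37607 IDs matched).

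After filterByExpr (default settings) and TMM scaling, cKO was compared with WT by edgeR's quasi-likelihood test (4.0.16, robust, R 4.3.3), with Benjamini-Hochberg adjustment over all 15015 genes. Each SE is the absolute log2 fold change over the square root of F. For SDs, log2 CPM used a prior count of 2. Exact permutation tests ran over 924 assignments. Library pairs differed by more than sampling noise (chi-square over degrees of freedom at least 22.8). P-values measure the spread of these libraries, which may be technical, and floors cover counting error only. The fit was tested on simulated counts with 200 changed genes drawn from all genes, not from the members. It recovered 22.4% of changes of 1.5-fold, 52.2% of 2-fold and 95.5% of 4-fold, and 3.42% of its calls were false. Alternatives were RLE scaling, TMM without Apoe, DESeq2 1.42.0, limma-voom (3.58.1) with sample weights, no filter, a mean of at least 5 CPM, 1 surrogate variable (sva 3.50.0), a covariate and the omission of libraries. The covariate, called the CNS marker component, is principal component 1 of the markers of neurons, macroglia, Schwann cells, ependyma and vessels.

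The members and gene lists were chosen with earlier results of these data known. Named genes are the 10 members, all called pathway genes, 10 fixed pathway genes and the 5 nearest in pattern, 1 item of which is not reported here, and other pathway genes named were chosen after their values were seen.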

Additional observations from a re-analysis of the deposited data

Results flagged for a closer look

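In 18 genes (the 9 members and 9 named pathway genes), the highest or lowest of the 6 libraries of each group was compared with the others, 36 groups in all, of which chance would single out about 1 in 20. In 2 of the 36 groups, a library lay far from the rest, which is close to the number that chance would give. The gaps were taken on CPM and not on log2 CPM, where high values lie closer to the rest. The chance rate was not checked for CPM. Iigp1 stood at 112 CPM in cKO 5, against 6.69 to 25.1 CPM in the other cKO libraries, a gap of 0.826 of the group's range. Socs1 stood at 51.9 CPM in the same library, against 3.13 to 12.2 CPM in the others, a gap of 0.814.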

How the results depend on the processing

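No member passed in either direction under any of the 21 alternatives, and Gm5431 passed in all 20 that tested it (log2 fold change from -2.39 to -1.96; with a minimum mean of 5 CPM it was not tested). Gbp8 and Gbp9 were not tested with that minimum either. The number of genes called over the whole table, 882 in the fit of all libraries, was 1843 by DESeq2, 4663 by limma-voom with sample weights, 2385 with a surrogate variable, 416 without cKO 1 and cKO 2, and 460 to 2818 without 1 library. The number of called pathway genes, 1 in the fit of all libraries, was 2 by DESeq2, 23 by limma-voom, 0 with a minimum mean of 5 CPM, 3 with the CNS marker component, 5 with a surrogate variable and 1 to 7 without 1 library. With limma-voom, log2 fold changes turned negative for Gbp2 (-0.03), Gbp4 (-0.47), Gbp7 (-0.58), Iigp1 (-0.58) and Socs1 (-0.75), the members' median was -0.46, and Ifngr2 passed (-0.28, adjusted p = 0.0372). With the CNS marker component, Gbp8 (0.13), Irgm1 (0.28), Igtp (0.19) and Irf1 (0.14) turned positive, and Ifngr1 (-0.25) and Jak1 (-0.10) negative. With a surrogate variable, Gbp8 (0.03), Irgm1 (0.06) and Ifngr1 (-0.10) changed sign. Without cKO 1 and cKO 2, so did Gbp8 (0.07), Gbp9 (0.01), Irgm1 (0.25), Igtp (0.15), Ifngr1 (-0.13), Jak1 (-0.06) and Irf1 (0.10). Without 1 library, log2 fold changes ran from -0.10 to 0.95 for Gbp4, -0.23 to 0.56 for Gbp7, -0.24 to 0.12 for Gbp8, -0.26 to 0.02 for Gbp9, -0.34 to 0.15 for Irgm1, -0.39 to 0.13 for Igtp and -0.48 to 0.85 for Iigp1. The same ranges were -0.03 to 0.19 for Ifngr1, -0.50 to 0.07 for Irf1, and -0.66 to 0.79 for Socs1. The cause was not tested. No paired analysis was possible because the groups share no replicate numbers.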
